A study of Mus musculus with 7 samples.

Results

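The classical cadherins and the catenins that bind their tails were followed through 7 genes, E-cadherin (Cdh1), P-cadherin (Cdh3), N-cadherin (Cdh2), beta-catenin (Ctnnb1), plakoglobin (Jup), alpha-catenin (Ctnna1) and p120-catenin (Ctnnd1). Every probe whose deposited symbol was one of these names was taken, which gave 12 of 25697 probes and 7 of 18138 symbols. The tissue was the labial cervical loop, the epithelial pocket at the base of the mouse incisor from which the enamel organ is renewed. The 4 mutant samples had the genotype K14CreER;Yap/Tazf/f, in which a tamoxifen-inducible Cre under the keratin 14 promoter acts on floxed Yap and Taz, and the 3 control samples had Yap/Tazf/f without Cre. Mice of both genotypes were 8 weeks old, received 5 mg tamoxifen on each of 2 days, and gave tissue 48 hours after the last dose, so effects of Cre activity and of the floxed deletion cannot be told apart. Each sample was hybridised to 1 Illumina array, with mutant replicates 1 and 2 and control replicates 1 and 2 on 1 chip and mutant replicates 3 and 4 and control replicate 3 on another.

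Classical cadherins hold neighbouring cells together by calcium-dependent binding between their outer domains. Inside the cell their tails bind p120-catenin, which keeps the cadherin at the membrane, and either beta-catenin or plakoglobin, which recruit alpha-catenin and through it the actin cytoskeleton. Beta-catenin is also the co-activator of Wnt signalling, and alpha-catenin is known in mouse epidermis to bind YAP through 14-3-3 proteins and hold it outside the nucleus. E-cadherin is the general cadherin of epithelia, P-cadherin is typical of basal and placode epithelium, and N-cadherin is best known from mesenchyme and nerve. In the RefSeq table of GRCm38.p6, Cdh1 and Cdh3 both lie on mouse chromosome 8, with 0 protein-coding genes between them.

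Across the arrays 13767 to 14752 probes were detected, meaning a deposited detection p-value under 0.05, at a median deposited intensity of 80.8 to 86.2. Levels below are log2 intensities after background correction and quantile normalisation, and a probe was tested if it was detected on at least 3 arrays. Differences are mutant minus control from limma with genotype and chip as terms, with p-values adjusted by Benjamini-Hochberg over 14666 probes. The number of arrays limits the precision. Separate animals are not named for the samples, so each p-value reflects the scatter of these 7 samples alone, which may be technical. Of the 2 targeted transcripts, Yap1 averaged 6.64 ± 0.25 (SD, n = 4) in mutant and 7.27 ± 0.10 (SD, n = 3) in control arrays and was lower, with a log2 difference of -0.68 (SE 0.12; adjusted p = 0.0443 in limma). No probe of the table, Yap1 included, was called with a background offset of 50, without background correction or without the detection filter. Wwtr1, which encodes TAZ, averaged 4.61 ± 0.26 (SD, n = 4) in mutant and 4.75 ± 0.20 (SD, n = 3) in control arrays, and its difference of -0.15 (limma adjusted p = 0.819) did not pass.

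Most epithelial markers were detected in the tissue, but so were many markers of other cell types. Of those with a probe, 14 of 19 mesenchymal and 9 of 12 leukocyte markers were detected on at least 3 arrays. Of 21 epithelial markers, 20 had a probe and 18 were tested, 7 positive and 11 negative, with 0 called. At an unadjusted p under 0.05 in limma 1 of the 18 was higher and 0 lower, beside 4.5% and 3.74% of all tested genes. Krt14 and Krt5, keratins of basal epithelium named after their values were seen, stood at almost the same level in both genotypes. Krt14 averaged 9.94 in mutant and 9.95 in control arrays, and Krt5 averaged 9.87 in both. The summed normalised intensity of the 18 markers was 7212 to 7493 in mutant arrays and 6988 to 7039 in control arrays, so the ranges did not overlap, while the mean of their log2 values was 7.58 to 7.61 and 7.57 to 7.61. Epcam had no probe, and Krt19 and Cldn4 were detected on 0 arrays. In tissue samples, fewer cells of a type and less RNA per cell cannot be told apart, which holds for every level below.

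Of the 12 probes, 10 were tested, from 5 genes. In limma 0 of the 10 passed over all probes, where 0.0614% of all tested probes did, 0.0341% higher and 0.0273% lower. An unadjusted p under 0.05 was reached by 4 of the 10, against 8% of all tested probes. Of these 4, 2 were higher, against a background of 4.32%, and 2 were lower, against 3.69%. In 3 of the 10 all mutant arrays lay below all control arrays, against 3.27% of all tested probes, and in 0 all mutant arrays lay above, against 3.28%, so 6.55% of all tested probes had groups without overlap in either direction. The difference was positive in 4 of the 10 and negative in 6, where 50.1% of all tested probes were positive. Several of these probes belong to the same gene and are not independent of each other. The 2 genes left untested were Cdh2 and Jup, whose probes were close to background on every array.

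**Figure D1:**
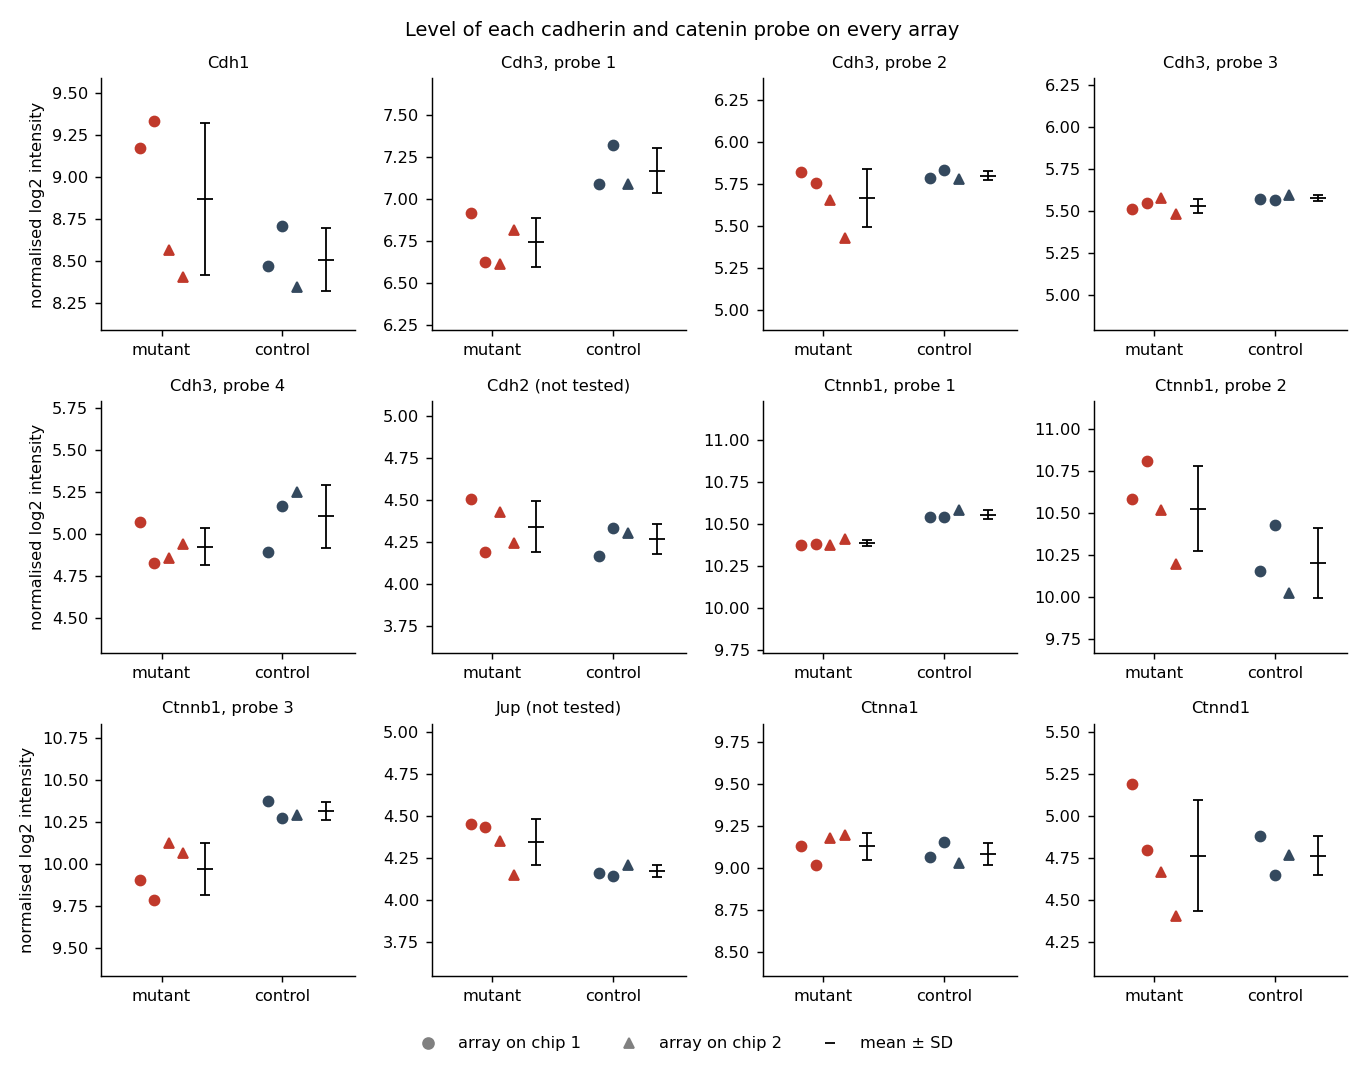
Normalised log2 intensity of each of the 12 probes on every array, mutant left of control, with the axis of every panel spanning the same range of 1.5 log2 units. Circles are arrays on the first chip, triangles arrays on the second, and bars are the mean ± SD of 4 mutant and 3 control arrays. The mutant points of Cdh3 probe 1 and of Ctnnb1 probes 1 and 3 lie below all control points, while those of Cdh1 divide by chip.

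E-cadherin had 1 probe, detected on all 7 arrays. In the deposited, non-normalised values Cdh1 had intensities of 669, 773, 491 and 405 in mutant replicates 1 to 4, against 365, 436 and 398 in control replicates 1 to 3. Mutant replicates 1, 2 and 3 stood above every control, and mutant replicate 4 lay within the control range. After normalisation the Cdh1 levels were 9.17, 9.33, 8.56 and 8.40 in mutant replicates 1 to 4, against 8.47, 8.71 and 8.34 in control replicates 1 to 3. The mutant arrays divided by chip: both of the first chip exceeded all controls, and both of the second lay among them. Cdh1 averaged 8.87 ± 0.45 (SD, n = 4) in mutant and 8.51 ± 0.19 (SD, n = 3) in control arrays. With chip as a term the difference was 0.45 (SE 0.13, 95% interval 0.19 to 0.72, unadjusted p = 0.00204), a 1.37-fold ratio, and it did not pass over all probes (limma adjusted p = 0.375). The Cdh1 difference was 0.66 within the first chip and 0.14 within the second. Each array read the Cdh1 probe on 25 to 42 beads.

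P-cadherin had 4 probes, each detected on all 7 arrays and numbered here from the brightest to the dimmest (ILMN_3156246, ILMN_2444594, ILMN_3077284 and ILMN_1222853). Cdh3 probe 1 had normalised levels of 6.92, 6.63, 6.61 and 6.82 in mutant replicates 1 to 4, against 7.09, 7.32 and 7.09 in control replicates 1 to 3. Every mutant array lay below every control array on this probe. The deposited intensities of the same probe were 176, 170, 176 and 180 in mutant replicates 1 to 4 and 177, 200 and 205 in control replicates 1 to 3, so before normalisation mutant replicate 4 still lay above control replicate 1. Cdh3 probe 1 averaged 6.74 ± 0.15 (SD, n = 4) in mutant and 7.17 ± 0.13 (SD, n = 3) in control arrays. Its difference was -0.41 (SE 0.12, 95% interval -0.66 to -0.16, unadjusted p = 0.00243) and did not pass over all probes (limma adjusted p = 0.375). It was -0.44 within the first chip and -0.38 within the second.

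The other Cdh3 probes also had values below 0, but of smaller size. Probe 2 differed by -0.11 (95% interval -0.34 to 0.13), probe 3 by -0.051 (95% interval -0.27 to 0.17) and probe 4 by -0.19 (95% interval -0.44 to 0.060). On each of these 3 probes the groups overlapped. Within the first and the second chip, probe 2 differed by -0.019 and -0.24, and probe 4 by -0.082 and -0.35. Probe 2 was -0.019 without control replicate 3 and -0.054 without mutant replicate 4, and probe 3 was -0.033 without mutant replicate 4. Probe 4 was -0.082 without control replicate 3 and -0.29 without control replicate 1. Cdh3 probe 2 had 5.82, 5.76, 5.66 and 5.43 in mutant replicates 1 to 4, against 5.79, 5.83 and 5.78 in control replicates 1 to 3, and its lowest value was that of mutant replicate 4. Probe 4, the dimmest, averaged 4.93 ± 0.11 (SD, n = 4) in mutant and 5.11 ± 0.19 (SD, n = 3) in control arrays. The background offset compresses differences of dim probes. With a larger offset of 50, probes 1 to 4 differed by -0.32, -0.064, -0.030 and -0.094. Without background correction probes 1 to 4 differed by -0.28, -0.049, -0.022 and -0.067. Whether compression sets the gap between the 4 probes was not tested. The authors' deposited table pairs probes 1 and 3 with the same RefSeq transcript, yet their differences were -0.41 and -0.051. With the mean of all 4 probes in place of the brightest, the Cdh3 difference was -0.19.

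**Figure D2:**
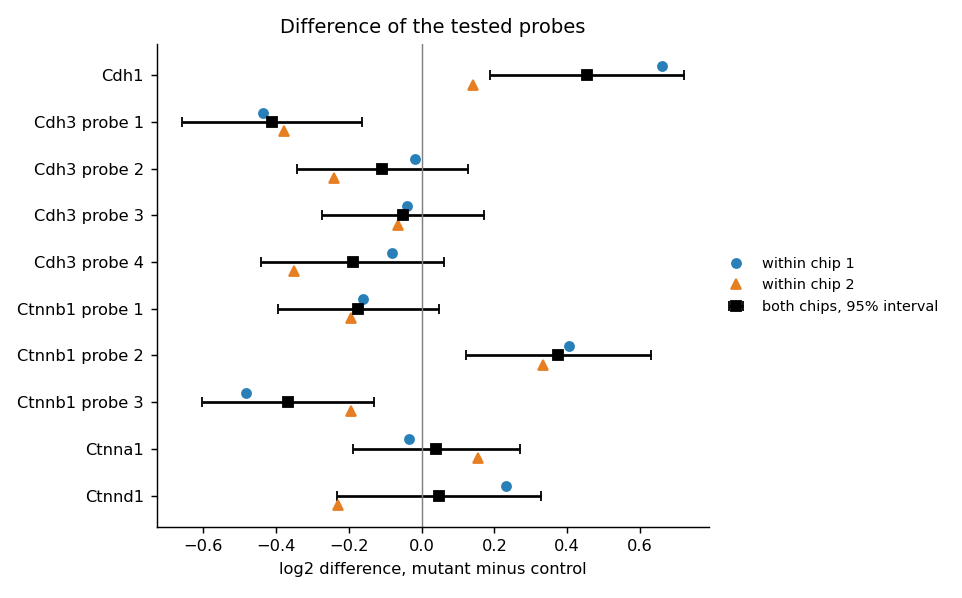
Log2 difference, mutant minus control, of the 10 tested probes, with squares and 95% intervals from limma on both chips, circles for the first chip alone and triangles for the second. The intervals of Cdh1 and Ctnnb1 probe 2 lie above 0, those of Cdh3 probe 1 and Ctnnb1 probe 3 lie below 0, and the other 6 include it.

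E-cadherin was then set against P-cadherin within each array. Probes of different genes have no common scale, so the log2 level of Cdh1 minus that of Cdh3 was compared only between arrays. Against Cdh3 probe 1 it was 2.26, 2.70, 1.95 and 1.59 in mutant replicates 1 to 4, against 1.38, 1.39 and 1.25 in control replicates 1 to 3. All 4 mutant arrays lay above all 3 controls, including mutant replicates 3 and 4, whose Cdh1 levels alone did not. The controls lay close together, at 1.34 ± 0.078 (SD, n = 3), while the mutants spread more widely, at 2.12 ± 0.47 (SD, n = 4). The difference between the genotypes was 0.79 (two-sided exact permutation p = 0.0571 over 35 assignments, the smaller tail doubled). With this doubling, 0.0571 is the smallest p that 4 against 3 arrays allow. Within the first chip the difference was 1.10 and within the second 0.52. Permuting within each chip gave an exact p of 0.111, again the smallest possible with the doubling.

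The same within-array value was taken with the other 3 Cdh3 probes, which makes 4 relations in all. With Cdh3 probe 2 the mutant arrays ranged from 2.91 to 3.57 and the control arrays from 2.56 to 2.88, without overlap (difference 0.49, exact permutation p = 0.0571). With probe 3 the mutant range of 2.92 to 3.78 overlapped the control range of 2.75 to 3.15 (difference 0.41, exact permutation p = 0.229). With probe 4 the ranges were 3.46 to 4.50 in mutant and 3.09 to 3.58 in control arrays (difference 0.54, exact permutation p = 0.171). Adjusted over the 4 relations, the exact permutation p-values were 0.114 for probes 1 and 2 and 0.229 for probes 3 and 4. All 4 differences ran the same way, but they share the Cdh1 value of each array, so they are not separate evidence.

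**Figure D3:**
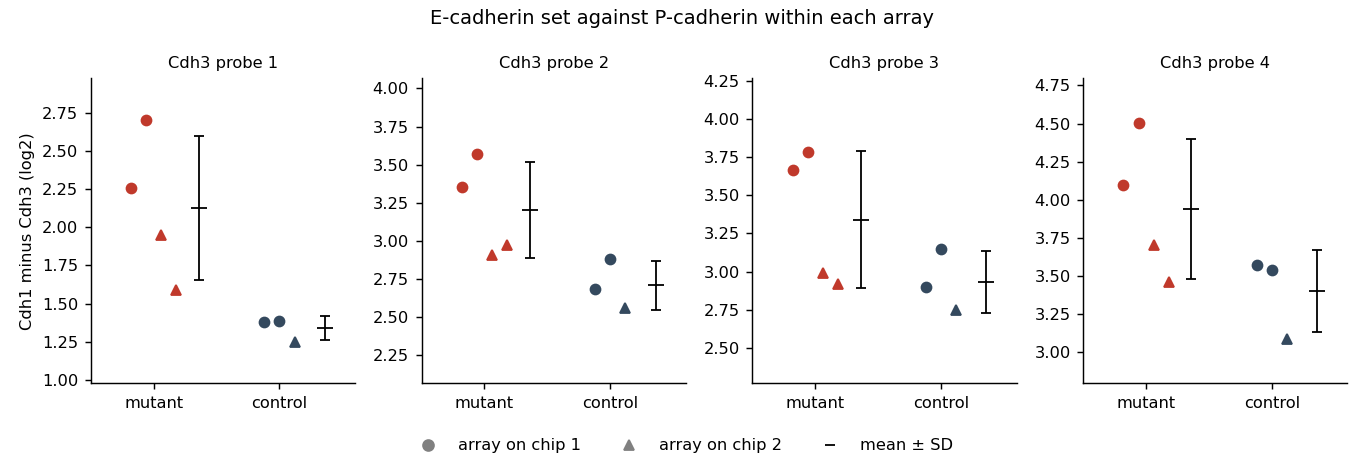
Log2 level of Cdh1 minus that of each of the 4 Cdh3 probes on every array, mutant left of control, with circles for the first chip, triangles for the second and bars for the mean ± SD of 4 mutant and 3 control arrays. The 2 groups do not overlap with Cdh3 probes 1 and 2 and overlap with probes 3 and 4.

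N-cadherin had 1 probe, detected on 2 of 4 mutant and 0 of 3 control arrays. Its deposited intensities were 82.7, 77.4, 84.3 and 79.8 in mutant replicates 1 to 4, against 74.4, 78.2 and 81.3 in control replicates 1 to 3. These values overlapped and lay near the median of all probes. The mean normalised level of Cdh2 was 4.34 in mutant and 4.27 in control arrays, both below the bound of 4.40 set by the dimmest detected probes of the controls, so no fold is given. N-cadherin was therefore not measurable against E-cadherin on these arrays.

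Beta-catenin had 3 probes, all bright and detected on all 7 arrays, and their differences did not share a direction. They are numbered from the brightest to the dimmest (ILMN_2696575, ILMN_2994460 and ILMN_2616556), and the authors' deposited table pairs all 3 with the same RefSeq transcript. Ctnnb1 probe 1 had 10.38, 10.39, 10.38 and 10.41 in mutant replicates 1 to 4, against 10.54, 10.54 and 10.59 in control replicates 1 to 3. The arrays of each genotype were nearly level and the groups did not overlap, and the difference was -0.17 (SE 0.11, limma adjusted p = 0.701). The SDs were 0.017 (n = 4) in mutant and 0.027 (n = 3) in control arrays, smaller than this SE, which limma draws toward the variance of all tested probes. Without background correction the difference was -0.17 (SE 0.040, limma adjusted p = 0.290). In the deposited intensities, from 1369 to 1568 in mutant and from 1393 to 1599 in control arrays, the groups did overlap.

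Ctnnb1 probe 2 stood the other way. It had 10.58, 10.80, 10.51 and 10.19 in mutant replicates 1 to 4, against 10.15, 10.43 and 10.02 in control replicates 1 to 3, and mutant replicate 4 lay within the control range. Its difference was 0.38 (SE 0.12, 95% interval 0.12 to 0.63, unadjusted p = 0.006, limma adjusted p = 0.452), with 0.40 within the first chip and 0.33 within the second. Ctnnb1 probe 3 had 9.90, 9.79, 10.12 and 10.07 in mutant replicates 1 to 4, against 10.38, 10.28 and 10.29 in control replicates 1 to 3. All mutant arrays lay below the controls on probe 3, with a difference of -0.37 (SE 0.11, 95% interval -0.60 to -0.13, unadjusted p = 0.004, limma adjusted p = 0.422), -0.48 within the first chip and -0.20 within the second.

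The gap between the differences of Ctnnb1 probes 2 and 3 was 0.74 on the log2 scale. Among the 1044 genes with at least 3 tested probes it was the widest such gap (1 of 1044), against a median gap of 0.22. The gap of the 4 Cdh3 probes, 0.36, was reached by 14.3% of those genes. Within the second chip alone the Ctnnb1 gap was 0.53 and its place from the widest was 102, and its place moved to 15 without mutant replicate 2 and to 7 without control replicate 1. The array value of probe 2 minus that of probe 3 was 0.68, 1.02, 0.39 and 0.12 in mutant replicates 1 to 4, against -0.23, 0.15 and -0.27 in control replicates 1 to 3, so only mutant replicate 4 lay below the highest control. No single direction can be given for Ctnnb1. With the mean of its 3 probes the difference was -0.055 (SE 0.11). The position of each probe on the transcript was not analysed here.

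**Figure D4:**
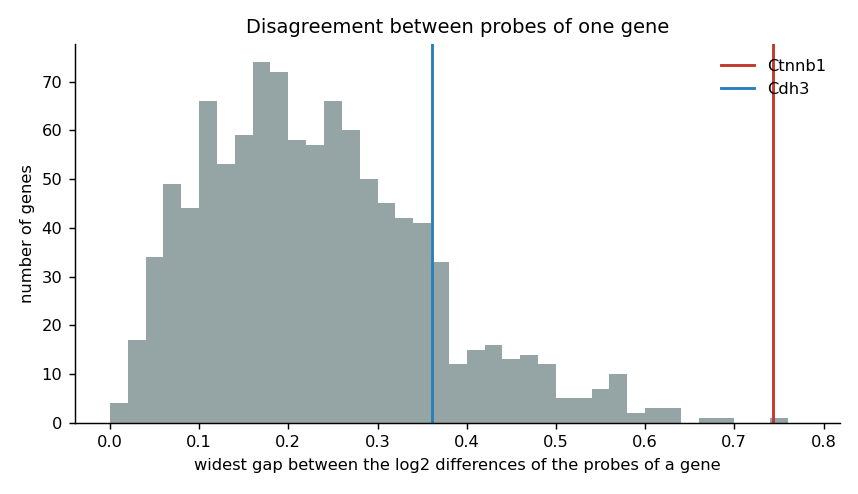
Number of genes by the widest gap between the mutant minus control log2 differences of their probes, for the 1044 genes with at least 3 tested probes. The lines mark Ctnnb1 at 0.74, at the far right of the distribution, and Cdh3 at 0.36.

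Plakoglobin, which shares the tail-binding place of beta-catenin and also serves desmosomes, had 1 probe near background. Jup was detected on 2 of 4 mutant and 0 of 3 control arrays, with deposited intensities of 81.8, 83.6, 82.6 and 76.1 in mutant replicates 1 to 4, against 74.1, 72.8 and 78.6 in control replicates 1 to 3. Mutant replicates 1, 2 and 3 lay above all controls and mutant replicate 4 lay between them. The mean normalised level was 4.34 in mutant and 4.17 in control arrays, and neither exceeded the bound of 4.40, so no fold is given and the comparison of plakoglobin with beta-catenin was not made. In the authors' deposited table Jup has a q-value of 0.264. The lowest q-value of a member there is 0.0760, for Cdh3 probe 1, which is above 0.05. Ctnnb1 probe 3 has 0.124, Cdh1 0.164 and Ctnnb1 probe 2 0.177.

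Alpha-catenin and p120-catenin had values close to 0. Ctnna1 had 9.13, 9.02, 9.18 and 9.20 in mutant replicates 1 to 4, against 9.06, 9.16 and 9.03 in control replicates 1 to 3, and the groups overlapped. Its difference was 0.041 (SE 0.11, 95% interval -0.19 to 0.27, limma adjusted p = 0.952), so a change of more than 0.27 in either direction lies outside the interval. Ctnnd1 was dim but detected on all 7 arrays, with 5.19, 4.80, 4.67 and 4.40 in mutant replicates 1 to 4, against 4.88, 4.64 and 4.76 in control replicates 1 to 3. The mutant values of Ctnnd1 spread on both sides of the controls (4.76 ± 0.33 (SD, n = 4) against 4.76 ± 0.12 (SD, n = 3)), and the difference was 0.048 (95% interval -0.23 to 0.33, limma adjusted p = 0.955). It was 0.23 within the first chip and -0.23 within the second.

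The members did not share one pattern over the arrays. Across the 7 arrays, which share 2 chips, the Pearson correlation with Cdh1 was 0.90 for Ctnnb1 probe 2, -0.82 for Ctnnb1 probe 3, -0.35 for Cdh3 probe 1 and -0.25 for Ctnna1. Cdh3 probe 1 correlated at 0.83 with Ctnnb1 probe 1 and at 0.75 with Cdh3 probe 4. Cdh1 and Ctnnb1 probe 2 had their highest values in mutant replicates 1 and 2 and their lowest in control replicate 3.

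Among 11922 probes of other genes detected on all arrays, those most like Cdh1 over the 7 arrays belonged to Ilvbl (r = 0.996), the cytochrome c oxidase subunit gene Cox6c (r = 0.993) and the ribosomal protein gene Rpl23 (r = 0.988), and 157 probes exceeded 0.9. Other tested probes of Ilvbl correlated with Cdh1 at -0.26 and 0.28, and those of Rpl23 at 0.24 to 0.79, so the likeness belonged to single probes rather than to all probes of these genes. The probes most like Cdh3 probe 1 belonged to Aifm1, a mitochondrial flavoprotein involved in cell death (r = 0.99), the nuclear lamin gene Lmna (r = 0.99) and the glutathione peroxidase gene Gpx4 (r = 0.98), and 29 exceeded 0.9. Of these, too, Aifm1 and Lmna had other probes that correlated at no more than 0.17 and 0.39.

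The partners of the adherens junction were read with 1 probe per gene, and 0 of them were called, Yap1 aside. Of all 10484 genes read this way 0.0763% were called, 8.24% had an unadjusted p under 0.05 (4.5% higher and 3.74% lower) and 49.9% had a positive difference. Of 15 other classical cadherins, 11 had a probe and 2 were tested, Cdh6 at a difference of 0.12 (SE 0.11) and the mesenchymal cadherin Cdh11 at -0.074 (SE 0.17). Cdh4, Cdh7, Cdh8, Cdh19, Cdh20 and Cdh22 were detected on 0 arrays. Of 23 other catenins and junction partners, 17 were tested and 0 called, with a median difference of 0.040 beside -0.00 over the 10484 tested genes, and 11 were positive. Among them were Ctnnal1, an alpha-catenin relative, at 0.29 (SE 0.11, limma adjusted p = 0.499), with all mutant arrays above all controls, and Limd1, a LIM-domain protein of junctions, at -0.23 (limma adjusted p = 0.627). Of 16 genes of cadherin turnover and cleavage 15 were tested and 0 called, and the kinase gene Src differed by -0.22 (SE 0.12, limma adjusted p = 0.652).

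Genes around beta-catenin signalling were likewise not called. The list for the destruction complex of beta-catenin also held Ctnnbip1 and Ctnnbl1, which are not parts of that complex. Of its 12 genes 10 were tested, with 8 positive and a median difference of 0.071, these 2 included. Ctnnbip1, an inhibitor of the binding of beta-catenin to TCF factors, differed by 0.24 (SE 0.11, limma adjusted p = 0.621). Ctnnbl1 differed by 0.11 and Apc by 0.16. Of 19 transcription partners and targets 14 were tested, 7 positive and 7 negative, with the largest values in Tcf7l2, a DNA-binding partner of beta-catenin, at -0.36 (SE 0.12, limma adjusted p = 0.451) and its co-activator Bcl9 at 0.35 (SE 0.13, limma adjusted p = 0.527). All mutant arrays of Tcf7l2 lay below all controls. Repressors of the Cdh1 promoter were mostly out of reach: of 13 genes 4 were tested, and Snai1, Zeb1, Zeb2 and Twist2 were detected on fewer than 3 arrays and Twist1 on 0. The 4 tested were the co-repressor genes Hdac2 at -0.23 and Ctbp1 at -0.15, and the DNA-binding factors Snai3 at 0.11 and Klf8 at -0.0047. None of them passed.

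In the list that links alpha-catenin to YAP, 10 of 16 genes were tested and 1 was called, lower, which was Yap1 itself. A list that holds the targeted gene is not independent of the genotype. The 14-3-3 gene Ywhaq differed by -0.32 (SE 0.11, limma adjusted p = 0.476), with all mutant arrays below all controls. Of the 10 values 9 were negative, that of the targeted Yap1 among them, where 49.9% of all tested genes were positive.

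**Figure D5:**
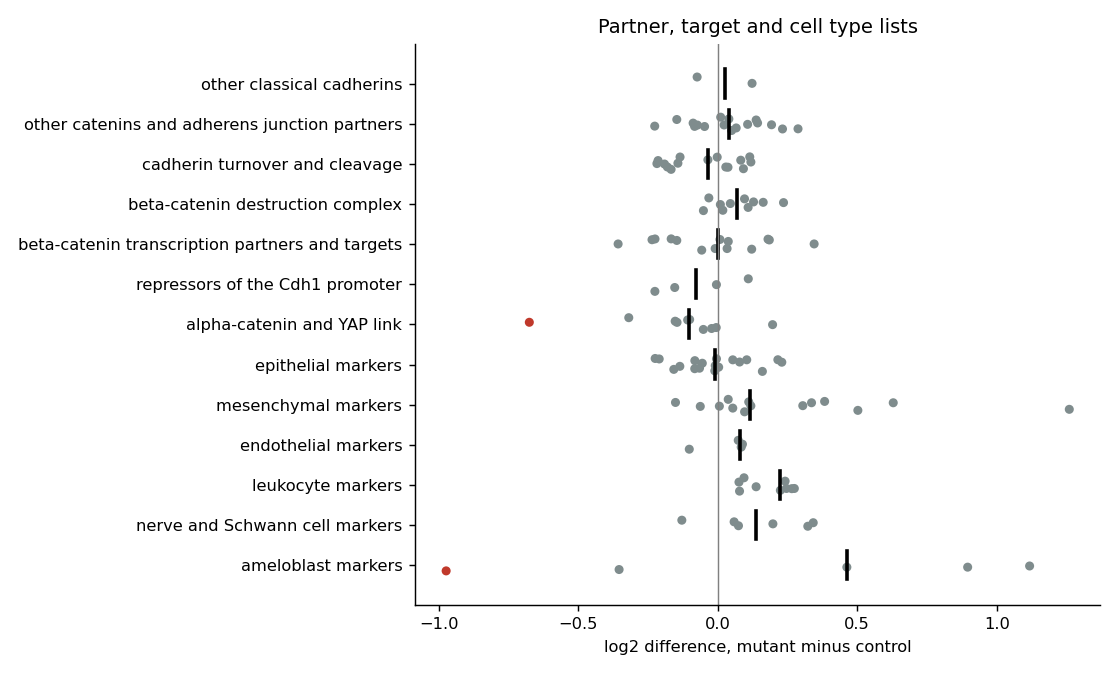
Log2 difference, mutant minus control, of each tested gene of 13 lists, 1 probe per gene, with the median of each list as a black bar and genes with an adjusted p under 0.05 in red. Only Yap1 and Cftr are red, and the medians lie between -0.10 and 0.22 except for the 5 ameloblast markers at 0.46.

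Markers of other cell types were measured beside the cadherins. Of 20 mesenchymal markers 14 were tested, 12 positive and 0 called, with a median difference of 0.11. At an unadjusted p under 0.05 in limma 5 of the 14 were higher and 0 lower, beside 4.5% and 3.74% of all tested genes. Of the leukocyte and endothelial markers 0 reached that threshold. The mesenchymal median was 0.077 within the first chip and 0.30 within the second. Their summed intensity was 1365 to 1712 in mutant and 1341 to 1583 in control arrays, and Pdgfrb, Twist1, Msx1 and Postn were detected on 0 arrays. Col1a1, a collagen of bone and dentin, at 1.26 (SE 0.26, limma adjusted p = 0.152) and the proteoglycan gene Lum at 0.50 (SE 0.18) had the smallest p. Of 12 leukocyte markers 9 were tested and all 9 were positive, with none called and a summed intensity of 354 to 498 in mutant and 313 to 420 in control arrays. Their median difference was 0.026 within the first chip and 0.46 within the second. Aif1 at 0.27 and Cd53 at 0.27 led them, and Fcer1g was detected on 0 arrays. Of 12 endothelial markers 4 were tested, with sums of 105 to 115 in mutant and 104 to 115 in control arrays, and Pecam1, Kdr, Flt1, Tek, Emcn, Eng and Vwf detected on 0 arrays; Egfl7 differed by -0.10 and Cldn5 by 0.089.

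Nerve and Schwann cell markers, 6 tested of 12, had sums of 551 to 683 in mutant and 529 to 605 in control arrays, with 0 called and with S100b, Cdh19 and Gfap on 0 arrays. At an unadjusted p under 0.05 in limma 2 of the 6 were higher and 0 lower. Of 10 ameloblast markers 5 were tested, with sums of 541 to 1268 in mutant and 543 to 653 in control arrays and with Mmp20, Klk4 and Slc24a4 on 0 arrays. At the same unadjusted threshold 3 of the 5 were higher and 2 lower, beside 4.5% and 3.74% of all tested genes. Cftr, the chloride channel of ameloblasts, was called lower at -0.97 (SE 0.18, limma adjusted p = 0.0455). The enamel matrix gene Enam, named after its values were seen, differed by 0.90 (SE 0.18, limma adjusted p = 0.134), with all mutant arrays above all controls. The median difference of the 5 ameloblast markers was 0.061 within the first chip and 1.07 within the second. Among epithelial markers Trp63, the regulator of basal epithelium, differed by -0.22 (SE 0.11, limma adjusted p = 0.633). The part of cell composition in the Cdh1 and Cdh3 values was not tested.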

How the data were processed

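Total RNA of 7 samples was made into biotinylated cRNA and hybridised to Illumina arrays, per the labels' protocols. Per the file headers, each deposited intensity is a non-normalized probe signal, beside its standard error, the number of beads and a detection p-value. The authors also deposited log2 values adjusted with ComBat for the array ID, as the name of their table says, which equal the series matrix (column medians of 6.61). No source used here gives their normalization before ComBat. In their comparison the authors deposited a p-value, a q-value and a fold score, and this score was found to be the ratio of the group means of log2 values, with a sign.

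Intensities were corrected with limma's nec function, a normal-exponential model whose background is derived from the detection p-values (offset 16), quantile normalised and taken to log2 with limma 3.58.1 in R 4.3.3. Genotype and chip (from the scan identifiers that the labels give) were fitted with lmFit and eBayes, with 4 residual and 15.5 prior degrees of freedom. The threshold was an adjusted p of 0.05, and lists used the brightest tested probe of a gene. The fit was checked on simulated data, where recovery was required only of planted differences larger than that of any member probe. That check does not speak to power at the sizes given here. Symbols are those of the array design, with older names matched through the RefSeq table of GRCm38.p6, and no build is named, so no coordinates are given.

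The members, lists and tests were chosen with earlier results of these data known. Named are all members, the targeted genes, from each list the called genes or otherwise the 2 of smallest p, and the 3 genes most like Cdh1 and Cdh3 by Pearson correlation. Krt5, Krt14 and Enam were named after their values were seen, and defining markers on 0 arrays are named as the rule asks. A few genes that the rule names are not reported here. The within-array comparison of plakoglobin with beta-catenin and of N-cadherin with E-cadherin was planned and left out because the probes were near background. Replicate numbers are shared between genotypes without a stated pairing. Alternatives were the background correction, normalization, filter, chip term, series matrix values, variance options, replicate block, probe rule and each array left out.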

Additional observations from a re-analysis of the deposited data

How the results depend on the processing

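The difference of Cdh1 was positive under all 18 alternatives (0.14 to 0.66) and that of Cdh3 probe 1 negative under all 19 (-0.48 to -0.19), and no member passed over all probes under any alternative run. Without the chip term Cdh1 was 0.36 (limma adjusted p = 0.765). The Cdh1 minus Cdh3 value per array stayed positive, from 0.52 to 1.10, and from 0.59 to 0.96 with 1 array left out. Signs turned for values near 0, and the cause was not tested: Ctnna1 was -0.036 on the first chip alone and the same without control replicate 3, which leaves that chip's difference, and otherwise reached 0.089 with 1 array left out and 0.17 with median scaling. Ctnnd1 was -0.23 on the second chip alone, -0.057 without control replicate 2 and -0.096 without mutant replicate 1, in a range of -0.096 to 0.23 with 1 array left out, and Cdh3 probe 3 was 0.031 with median scaling. The count of 9 called probes in the whole table moved to 0 with the offset of 50, 0 without background correction, 0 without the detection filter and 0 in the series matrix values, where limma gave 1282, 1274, 1914 and 1750 probes an unadjusted p under 0.05, and to 1 on the first chip alone. With 1 array left out it ranged from 0 to 14 (14 lacking control replicate 1, 1 when control replicate 3 was dropped and 4 when it was mutant replicate 4), with 0 when control replicate 2, or replicate 1 or 3 of the mutants, was left out (1041, 1018 and 1197 at an unadjusted p under 0.05). Deviations of same-numbered samples, which share a chip, correlated at -0.019, 0.16 and 0.15, and at -0.17, -0.072 and -0.26 with chip removed. The numbers were not taken to pair the samples, and 2 of 3 controls correlated best with their own number before chip was removed. With the replicate block 9 probes were called, Cdh1 was 0.52 and the Cdh1 minus Cdh3 value 0.96. The exact p of the latter, from flipping the signs of 3 pairs, was 0.25, the smallest possible. Mutant replicate 4 has no control of the same number, so both values equal those without that array. Probes near background limit what can be said of Cdh2, Jup and Ctnnd1.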
